A study of Homo sapiens with 8 samples.

Results

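The Frizzled receptors are 10 cell-surface proteins, encoded by FZD1 to FZD10, that bind secreted Wnt ligands. They were taken by gene symbol from a deposited table of 15811 genes, and 10 of 10 were present in it. Total RNA had been sequenced from the established human embryonic stem cell line H9, in 4 EXT1-/- libraries and 4 wild-type (WT) libraries. EXT1 encodes a glycosyltransferase that builds heparan sulfate chains. The EXT1-/- cells came from a single line made by targeting the EXT1 locus with CRISPR/Cas9, and the WT cells were H9 without that edit. Both groups had been grown in E8 medium on vitronectin, replated with the ROCK inhibitor Y-27632 and then kept for 28 h in RPMI-1640 with 6 µM CHIR-99021, which turns stem cells towards mesendoderm, the common precursor of mesoderm and endoderm. No uninduced cells were analysed here, so a difference already present before induction cannot be told apart from a difference in the response to it. The comparison asks how Frizzled transcripts differ in induced cells of a line described as lacking heparan sulfate.

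A Frizzled receptor has an extracellular cysteine-rich domain that holds the lipid of a Wnt, followed by a bundle of membrane-spanning helices. With the co-receptors LRP5 or LRP6 it recruits Dishevelled, stops the destruction complex and lets β-catenin enter the nucleus; with other partners it feeds the planar cell polarity pathway. Heparan sulfate binds many Wnts and several of their secreted regulators at the cell surface. CHIR-99021 inhibits GSK3, a kinase of the destruction complex, and so acts downstream of the receptors.

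The values are normalised read counts, whose totals lay between 37737058 and 40017763 per library. Mitochondrially encoded transcripts took 9.18 to 10.67% of the total in EXT1-/- replicates 1 and 4 and WT replicate 1, against 5.30 to 5.43% in the other 5 libraries. The labels do not name these sets, so the difference of each Frizzled gene is also given within the low set of 2 EXT1-/- and 3 WT libraries. The EXT1 transcript was 890, 894, 915 and 980 in EXT1-/- replicates 1 to 4, against 1776, 1499, 1464 and 1508 in WT replicates 1 to 4. It was thus lower in every EXT1-/- library (log2 fold change -0.76 ± 0.07 SE, limma adjusted p = 9.20e-05) but still present. TBXT, the defining gene of the primitive streak, was 3072 to 4932 in EXT1-/- libraries and 6244 to 7319 in WT libraries, so both groups carried this mark of the labelled differentiation.

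Of the 10 Frizzled genes, 7 were higher in EXT1-/- cells (FZD1, FZD2, FZD4, FZD7, FZD8, FZD9 and FZD10), 1 was lower (FZD5), and 2 did not pass the test (FZD3 and FZD6). The test was limma on log2(value + 1), with Benjamini-Hochberg adjusted p below 0.05 over all 15811 genes. By the same test 32.0% of all genes differed, 15.2% being higher and 16.8% lower in EXT1-/- cells. The median log2 fold change, EXT1-/- over WT, was 0.66 for the 10 members and 0.012 for all genes. In 8 of the 10 members no EXT1-/- value fell among the WT values, 7 of them higher and 1 lower in EXT1-/-, beside 33.5% of all genes without such overlap. For each of these 8 a two-sided exact permutation test gave p = 0.0286, the smallest that 70 divisions of the libraries allow. Any gene whose groups do not overlap has this p, so it adds nothing to the lack of overlap. At least a 2-fold change was found for 3 members, FZD1, FZD8 and FZD10. The share of all genes with such a change was not counted, so this number has no background beside it. FZD10, at a log2 fold change of 1.06, fell below 2-fold in the low set (0.93) and without EXT1-/- replicate 4 (0.93). It also did so with each library's GC and length trends removed (0.97). The FDR of the authors' deposited table, below 0.05 for 4144 of all 15811 genes in either direction, also put 7 members higher and 1 lower. In bulk RNA, fewer cells of a type and less RNA per cell cannot be told apart.

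**Figure D1:**
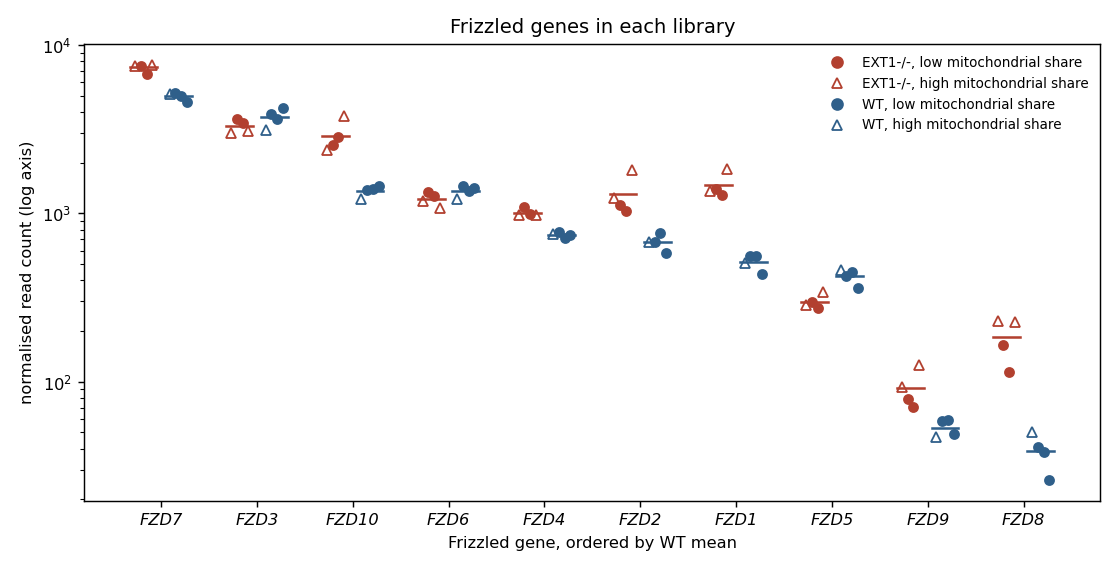
Normalised read count (log axis) of each Frizzled gene in every library, EXT1-/- in red left of WT in blue; bars are group means, and open triangles mark libraries with a high mitochondrial share. FZD3 and FZD6 overlap between the groups, FZD5 is lower in EXT1-/-, and the other 7 genes are higher in every EXT1-/- library than in any WT library.

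FZD1, FZD2 and FZD7 form the subfamily with the closest proteins, 80.5 to 81.4% identical in pairs, and all were higher in EXT1-/- cells. FZD1 (ENSG00000157240, chr7:91264364-91271326, plus strand, GRCh38 in GENCODE 29) is a single-exon gene for a β-catenin-activating receptor. It was 1360, 1391, 1287 and 1822 in EXT1-/- replicates 1 to 4, against 504, 559, 561 and 438 in WT replicates 1 to 4. Every EXT1-/- library was above every WT library, and EXT1-/- replicate 4 was the highest. The mean was 1465 ± 242 in EXT1-/- and 515.5 ± 58.0 in WT libraries (SD, n = 4 each), which is 1.50 ± 0.12 (SE) as a log2 fold change (limma adjusted p = 3.54e-05). The low set alone gave 1.37.

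FZD2 (ENSG00000180340, chr17:44557459-44559570, plus strand, 1 exon) encodes a receptor that also takes part in WNT5A signalling. It was 1229, 1125, 1034 and 1800 in EXT1-/- libraries, against 676, 673, 764 and 583 in WT libraries. The groups lay apart, with EXT1-/- replicate 4 well above the other EXT1-/- libraries. FZD2 rose by 0.92 ± 0.17 on the log2 scale (SE, limma adjusted p = 0.00323), and by 0.69 within the low set. FZD7 (ENSG00000155760, chr2:202034587-202038445, plus strand, 1 exon) is a receptor known for its use by human pluripotent stem cells. It had the highest counts of the family, with 7510, 7547, 6728 and 7628 in EXT1-/- libraries, against 5143, 5179, 4972 and 4554 in WT libraries. Its spread was among the smallest, and EXT1-/- replicate 3 stood below the other 3. The mean was 7353 ± 420 in EXT1-/- and 4962 ± 287 in WT libraries (SD, n = 4 each), a log2 fold change of 0.57 ± 0.06 (SE, limma adjusted p = 0.000212) and 0.54 within the low set.

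Because these genes are so alike, reads can be shared between them. The longest stretch that is the same in a pair of Frizzled transcripts was 81 bases long, in the coding sequences of FZD1 (chr7:91266062-91266142) and FZD2 (chr17:44558645-44558725), both on the plus strand. FZD2 and FZD7 shared up to 69 bases, FZD2 and FZD5 up to 52, FZD5 and FZD8 up to 51, and FZD1 and FZD7 up to 47. The stretch is shown in capitals throughout because every base of it is shared, as read from the GENCODE 29 transcripts:
FZD1 and FZD2: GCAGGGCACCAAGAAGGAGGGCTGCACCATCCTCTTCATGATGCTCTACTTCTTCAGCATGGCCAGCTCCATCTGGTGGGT
A read inside it could belong to either gene. The read length is not given in the sources used here, so how far counts moved between FZD1 and FZD2 is uncertain. The same holds for the other pairs named here, FZD5 and FZD8 among them.

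FZD5 and FZD8 are each other's closest relatives, 71.8% identical in protein, and moved in opposite directions. FZD8 (ENSG00000177283, chr10:35638249-35642278, minus strand, 1 exon) encodes the receptor whose mouse counterpart gave the known structure of a Wnt held by a Frizzled. It was 229, 164, 114 and 227 in EXT1-/- libraries, against 50, 41, 38 and 26 in WT libraries. The lowest EXT1-/- library was more than double the highest WT library. The mean was 183.5 ± 55.3 in EXT1-/- and 38.75 ± 9.91 in WT libraries (SD, n = 4 each), a ratio of 4.74. The log2 fold change of 2.20 ± 0.27 (SE, 95% interval 1.58 to 2.81, limma adjusted p = 0.000354) was the largest in the family, with 1.96 in the low set. In WT cells FZD8 was close to the detection limit of the table, since 1 CPM, the usual unit of reads relative to the library total, is 38.9 normalised counts, and it was the only member not at 1 CPM or more in every library.

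FZD5 (ENSG00000163251, chr2:207762586-207769563, minus strand, 2 exons) encodes a receptor known for roles in the eye and, in the mouse, in yolk sac vessels. It was 287, 296, 272 and 339 in EXT1-/- libraries, against 460, 423, 445 and 358 in WT libraries. The groups did not overlap, although EXT1-/- replicate 4 and WT replicate 4 were near each other. The mean was 298.5 ± 28.8 in EXT1-/- and 421.5 ± 45.0 in WT libraries (SD, n = 4 each), a log2 fold change of -0.49 ± 0.10 (SE, 95% interval -0.73 to -0.26, limma adjusted p = 0.00633) and -0.52 in the low set. Divided by transcript length, the FZD8 level over the FZD5 level was 1.33, 0.922, 0.698 and 1.11 in EXT1-/- replicates 1 to 4, against 0.181, 0.161, 0.142 and 0.121 in WT replicates 1 to 4. The pair thus stood at similar levels per length in EXT1-/- cells, while FZD5 was several times FZD8 in every WT library.

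Because this pair of relatives moved apart, the 250 bases before each start are shown, from RefSeq on GRCh38.p14 (FZD8 at chr10:35642297-35642546 and FZD5 at chr2:207769907-207770156, both on the minus strand). RefSeq promoters were matched for 5 members, FZD1, FZD4, FZD5, FZD8 and FZD9. Capitals mark matches on either strand to the motifs CTTTGA (the core of TCF/LEF sites, where β-catenin's partners bind), GGGCGG (GC box), CCAAT and TATAAA, and neighbouring matches may overlap:
FZD8: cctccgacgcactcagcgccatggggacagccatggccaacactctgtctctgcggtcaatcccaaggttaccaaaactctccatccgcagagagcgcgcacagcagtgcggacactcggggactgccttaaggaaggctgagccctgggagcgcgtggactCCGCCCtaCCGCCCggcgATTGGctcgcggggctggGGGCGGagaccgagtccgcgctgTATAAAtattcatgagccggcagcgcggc
FZD5: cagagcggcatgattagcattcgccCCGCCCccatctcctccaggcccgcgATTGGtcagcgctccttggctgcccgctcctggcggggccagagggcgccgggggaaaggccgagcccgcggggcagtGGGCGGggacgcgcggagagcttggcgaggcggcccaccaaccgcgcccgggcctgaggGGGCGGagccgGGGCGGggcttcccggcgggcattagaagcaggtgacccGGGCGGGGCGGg
The FZD8 window holds 3 GC boxes, 1 CCAAT match and 1 TATAAA match. The FZD5 window holds 6 GC boxes, a pair of them overlapping, and 1 CCAAT match, but no TATA match. None of the 5 Frizzled windows held CTTTGA. Among 35116 promoters of the same length, 42.6% hold GGGCGG, 32.0% CCAAT, 10.7% TATAAA and 11.2% CTTTGA. These matches describe the letters of the windows and nothing more.

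The genes whose profile over the 8 libraries was nearest to that of FZD8 were LINGO1, HOXA-AS2 and CACNA1G. Likeness was the root mean square difference between log2 profiles, each centred on its own mean, over 13871 genes. It was 0.160 for LINGO1, a membrane protein of neurons, 0.188 for HOXA-AS2, an antisense RNA of the HOXA cluster, and 0.225 for CACNA1G, a T-type calcium channel subunit. LINGO1 averaged 1491 ± 529 normalised counts in EXT1-/- libraries and 334.2 ± 119 in WT libraries (SD, n = 4 each). These counts were above those of FZD8 in both groups, but they were not divided by transcript length.

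FZD4, FZD9 and FZD10 form another subfamily, with FZD9 and FZD10 65.7% identical in protein, and all were higher in EXT1-/- cells. FZD10 (ENSG00000111432, chr12:130162459-130165740, plus strand, 1 exon) encodes a receptor found mainly in embryonic tissue. It was 2368, 2556, 2838 and 3783 in EXT1-/- libraries, against 1212, 1381, 1395 and 1456 in WT libraries. Every EXT1-/- library was above every WT library, with EXT1-/- replicate 4 the highest. The mean was 2886 ± 628 in EXT1-/- and 1361 ± 105 in WT libraries (SD, n = 4 each), a log2 fold change of 1.06 ± 0.14 (SE, limma adjusted p = 0.000487) and 0.93 in the low set. FZD10-AS1, a non-coding gene on the opposite strand whose start lies 203 bases from that of FZD10, was chosen after its values were seen. It was 185, 229, 218 and 252 in EXT1-/- libraries, against 120, 123, 121 and 133 in WT libraries, a log2 fold change of 0.82 ± 0.11 (SE, limma adjusted p = 0.000537). The library kit keeps strand, per the labels, but whether the counting used it is not given in the sources used here.

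FZD4 (ENSG00000174804, chr11:86945679-86955391, minus strand, 2 exons) encodes the receptor for Norrin, a ligand that is not a Wnt, and also binds Wnts. It was 972, 1092, 993 and 974 in EXT1-/- libraries, against 748, 773, 711 and 747 in WT libraries. The groups lay well apart and the libraries within each were close together. FZD4 rose by 0.43 ± 0.06 on the log2 scale (SE, limma adjusted p = 0.000757), and by 0.49 in the low set. FZD9 (ENSG00000188763, chr7:73433783-73436120, plus strand, 1 exon) encodes a receptor whose gene is among those lost in Williams syndrome. It was 93, 79, 71 and 125 in EXT1-/- libraries, against 47, 58, 59 and 49 in WT libraries. The groups did not overlap, but the 2 EXT1-/- libraries of the high set were the highest. The log2 fold change was 0.75 ± 0.19 (SE, limma adjusted p = 0.0160). In the low set it was 0.43 (limma adjusted p = 0.0735). Removing each library's GC and length trends gave 0.33 (limma adjusted p = 0.0693), so the call was lost both times.

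FZD3 and FZD6, the members best known for planar cell polarity, axon guidance and hair patterning in the mouse, did not pass the test. They are 54.6% identical in protein, and their coding transcripts have 7 exons, against 1 or 2 in the other 8. FZD3 (ENSG00000104290, chr8:28494205-28574268, plus strand) was 3006, 3627, 3423 and 3075 in EXT1-/- libraries, against 3123, 3912, 3634 and 4203 in WT libraries. The groups overlapped, and in both the high-set libraries were the lowest. The log2 fold change was -0.18 ± 0.10 (SE, 95% interval -0.41 to 0.05, limma adjusted p = 0.222), and -0.15 in the low set. Without WT replicate 1 it was -0.26 with a limma adjusted p of 0.0425, and FZD3 then counted as lower. FZD6 (ENSG00000164930, chr8:103298433-103332866, plus strand) was 1181, 1342, 1272 and 1072 in EXT1-/- libraries, against 1213, 1450, 1353 and 1408 in WT libraries. The groups overlapped here too. The log2 fold change was -0.16 ± 0.09 (SE, limma adjusted p = 0.200), and its 95% interval of -0.36 to 0.04 leaves room for a small fall but not for a rise like those of the 7 higher members.

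**Figure D2:**
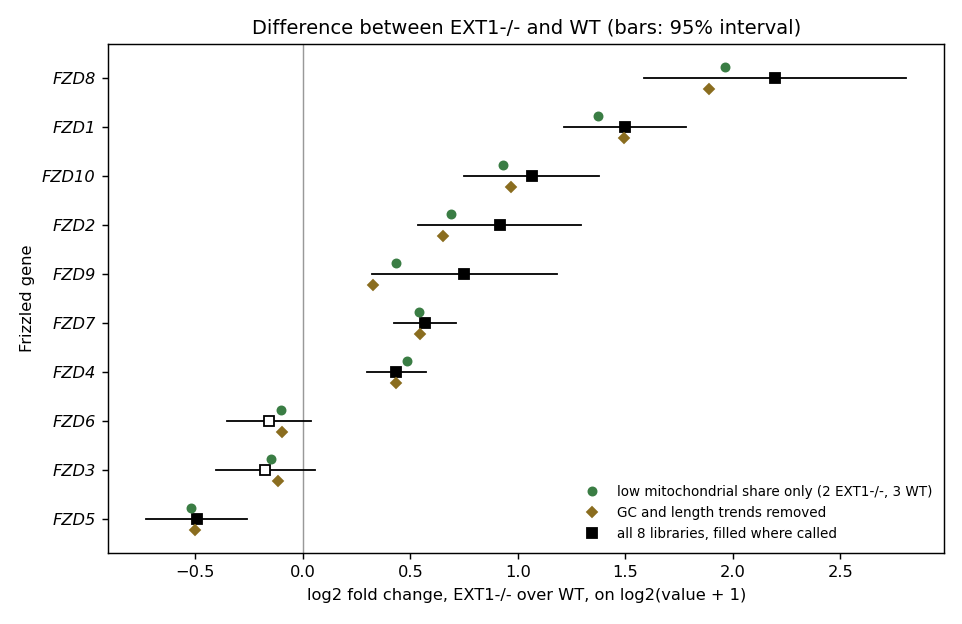
Log2 fold change, EXT1-/- over WT, of each Frizzled gene: squares with 95% intervals are from all 8 libraries, circles from the low mitochondrial set and diamonds from values with GC and length trends removed. FZD8 is largest at 2.20, FZD5 lies below 0 in all 3, and FZD9 moves most towards 0, to 0.43 and 0.33.

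The plot of fold changes shows how far each estimate leans on the library sets and on base composition. The GC content of the longest transcript ran from 34.9% in FZD3 and 38.4% in FZD6 to 64.6% in FZD8, 64.9% in FZD2 and 68.4% in FZD9. With GC and length trends removed, FZD2 had a log2 fold change of 0.65 and FZD8 of 1.89, both still past the threshold, while FZD1 at 1.49 hardly moved. EXT1-/- replicate 4 was the highest EXT1-/- library for 6 of the 10 members, and EXT1-/- replicate 3 the lowest for 6. WT replicate 4 was the lowest WT library for 5. The coefficient of variation among EXT1-/- libraries was largest in FZD8 (30.1%), FZD2 (26.6%) and FZD9 (25.9%), and smallest in FZD4 (5.65%) and FZD7 (5.71%).

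**Figure D3:**
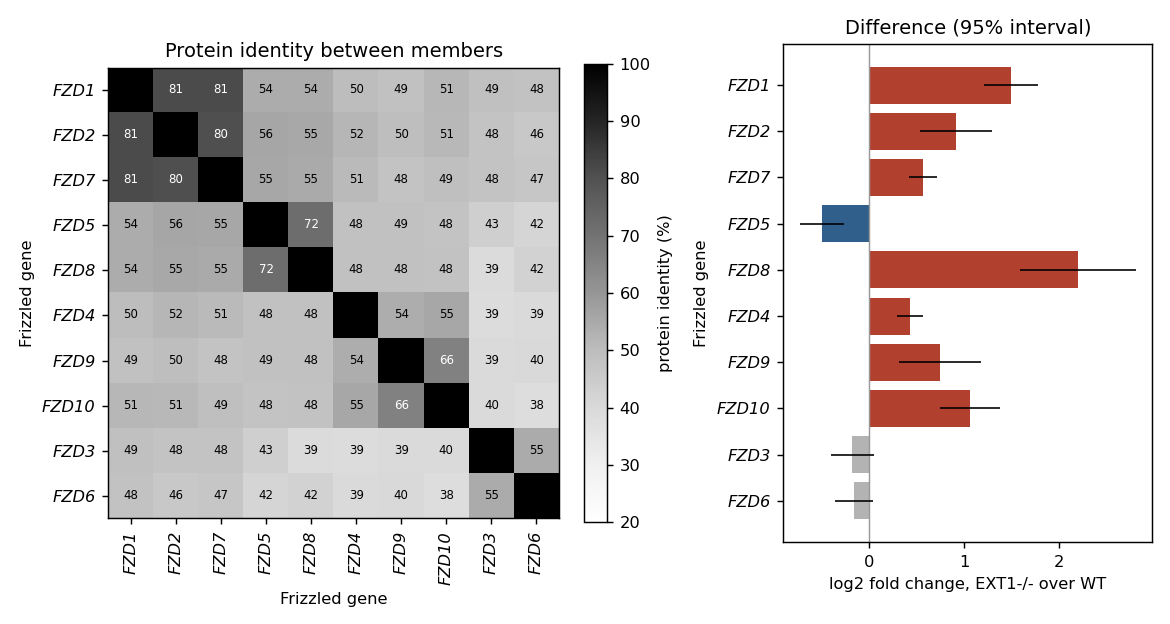
Left, protein identity (%) between each pair of Frizzled genes, ordered by subfamily. Right, the log2 fold change, EXT1-/- over WT, of the same genes with 95% intervals: all members of the FZD1, FZD2 and FZD7 group and of the FZD4, FZD9 and FZD10 group are higher in EXT1-/-, the FZD5 and FZD8 pair splits, and FZD3 and FZD6 did not pass the test.

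Levels can be set against each other only per length, so each count was divided by the length of the longest GENCODE 29 transcript in kilobases. FZD7 was first in both groups, at 1905 ± 109 counts per kilobase in EXT1-/- cells and 1286 ± 74.3 in WT cells (SD, n = 4 each). In EXT1-/- cells FZD10 (879 ± 191) and FZD2 (614 ± 163) came next, with overlapping values. They were followed by FZD6 (321 ± 30.9), then FZD3 (239 ± 21.3) and FZD1 (210 ± 34.7), which overlapped each other, and then FZD4 (136 ± 7.71). FZD8, FZD5 and FZD9 came last, at 45.5 ± 13.7, 44.5 ± 4.29 and 39.3 ± 10.2, each overlapping its neighbour. In WT cells FZD10 (415 ± 31.9), FZD6 (358 ± 27.3), FZD2 (319 ± 35.0) and FZD3 (271 ± 33.5) formed a run in which each overlapped the next. FZD4 (101 ± 3.46) was above FZD1 (74.0 ± 8.33), which overlapped FZD5 (62.8 ± 6.71). FZD9 (22.8 ± 2.62) and FZD8 (9.62 ± 2.46) closed the order without overlap.

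**Figure D4:**
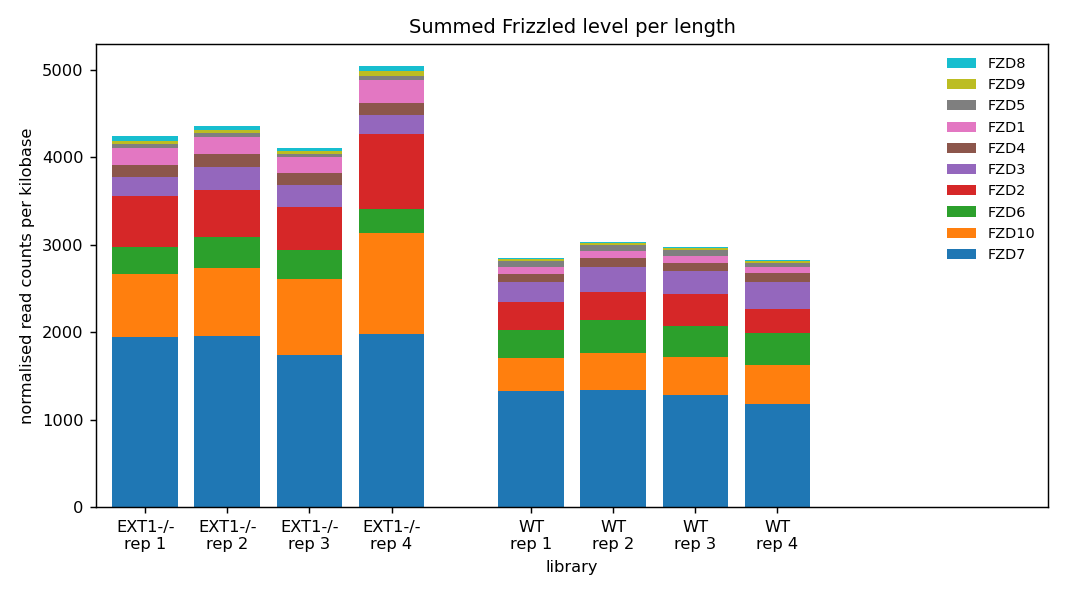
Normalised read counts per kilobase of the 10 Frizzled genes, stacked for each library, EXT1-/- replicates 1 to 4 left of WT replicates 1 to 4. The stacks reach 4101 to 5042 in EXT1-/- libraries and 2822 to 3032 in WT libraries, and FZD7 and FZD10 are the lowest blocks of each.

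The stacked plot adds these levels up. The 10 members summed to 4435 ± 417 counts per kilobase in EXT1-/- libraries and 2918 ± 101 in WT libraries (SD, n = 4 each), a ratio of 1.52. FZD7 made up 43.1 ± 2.97% of the sum in EXT1-/- libraries and 44.1 ± 2.12% in WT libraries. FZD10 took 19.7 ± 2.74% in EXT1-/- libraries and 14.2 ± 1.14% in WT libraries, and FZD1 took 4.72 ± 0.31% in EXT1-/- and 2.53 ± 0.21% in WT libraries. FZD6 took 7.32 ± 1.20% in EXT1-/- libraries and 12.3 ± 0.82% in WT libraries, and FZD3 5.43 ± 0.79% in EXT1-/- and 9.28 ± 1.19% in WT libraries (SD, n = 4 each). These shares depend on the length used: with the mean length of a gene's transcripts FZD3 took 9.81% in EXT1-/- and 16.0% in WT libraries, because its 4 transcripts average 7075 bases and its longest has 13740. The order of levels changes with it: FZD3 then stood second in WT libraries, ahead of FZD6 (14.4%), FZD10 (12.6%) and FZD2, and passed FZD6 (8.98%) in EXT1-/- libraries.

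The other genes of the Wnt pathway were read from lists by role, which held 77 genes, 60 of them in the table. Of the 60, 22 were higher in EXT1-/- cells, 7 were lower and 31 missed the threshold, where 15.2% of all genes were higher and 16.8% lower. These background shares apply to each list that follows. Their median log2 fold change was 0.22. Among the ligands, 9 of 19 were measured, with 5 higher, 1 lower and 3 not passing. The 1 lower was WNT3 (log2 fold change -0.98, limma adjusted p = 0.001). WNT5B, the ligand with the highest counts, did not pass (limma adjusted p = 0.219). In the low set WNT5B passed as lower, at -0.31 (limma adjusted p = 0.00719). The summed ligand counts overlapped, at 5385 to 6895 in EXT1-/- libraries and 5182 to 6632 in WT libraries. WNT5A, a ligand used mostly without β-catenin, was 495, 577, 434 and 467 in EXT1-/- libraries, against 82, 73, 94 and 96 in WT libraries. Its log2 fold change was 2.50 ± 0.12 (SE, limma adjusted p = 2.22e-06), with every EXT1-/- library far above the WT ones. WNT8A rose by 1.18 and WNT8B by 2.29 on the same scale, but WNT8B averaged only 12.5 ± 5.80 in WT libraries (SD, n = 4). WNT8B was below 1 CPM (38.9 normalised counts) in every WT library. So were WNT4, at 3 to 11, and WIF1, of the list of secreted antagonists, at 31 to 38. The filter of the deposited values at about 1 CPM thus kept these genes only through the EXT1-/- libraries. All were called higher, so the counts of higher genes in their lists and among the 60 are tied to that filter. Of the 3 secretion and inactivation genes, WLS, which carries Wnts to the surface, averaged 19394 ± 2079 in EXT1-/- libraries and 9753 ± 886 in WT libraries (SD, n = 4 each), a log2 fold change of 0.99. NOTUM, which strips the Wnt lipid, changed by 1.18 (0.85 in the low set) and PORCN, which adds it, by -0.40. Without WT replicate 2 PORCN kept a log2 fold change of -0.40 but missed the threshold (limma adjusted p = 0.0528), as it did by the FDR of the authors' deposited table (0.0555).

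At the membrane Frizzled works with co-receptors. Of 7 measured co-receptors and alternative receptors, 2 passed as higher, beside 15.2% of all genes, and 5 missed the threshold, and the median log2 fold change was 0.039. The 2 were ROR2 (0.91 ± 0.11, SE) and ROR1 (0.52 ± 0.07, SE), receptor kinases for WNT5A. In the low set, where 7111 of all 15811 genes passed, PTK7 (limma adjusted p = 0.03) and TSPAN12 (limma adjusted p = 0.0336) passed as well, both as lower. LRP6 was 3850 to 4338 in EXT1-/- libraries and 3912 to 4054 in WT libraries, with a limma adjusted p of 0.609. LRP5 was 898 to 1277 in EXT1-/- libraries and 947 to 1232 in WT libraries (limma adjusted p = 0.942), but with GC and length trends removed it passed as lower, at -0.26 (limma adjusted p = 0.00293). SMO, the Hedgehog pathway member of the same receptor class as the Frizzleds, was 3069, 3087, 3077 and 3345 in EXT1-/- libraries, against 2915, 2911, 2846 and 2797 in WT libraries. Its groups did not overlap, yet the log2 fold change of 0.13 had a limma adjusted p of 0.0726, and it turned to -0.051 with GC and length trends removed. In the low set it was 0.11 and passed (limma adjusted p = 0.0396).

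Frizzled protein at the surface is removed by the ubiquitin ligases RNF43 and ZNRF3, which R-spondins, held by LGR receptors, switch off. In this list 6 of 9 genes were measured, with 3 higher, 2 lower and 1 not passing. RNF43 was 5144, 4352, 4293 and 5274 in EXT1-/- libraries, against 2533, 2092, 2151 and 1925 in WT libraries, a log2 fold change of 1.13 ± 0.10 (SE, limma adjusted p = 5.99e-05). ZNRF3 averaged 2202 ± 249 in EXT1-/- libraries and 1535 ± 76.7 in WT libraries (SD, n = 4 each), a log2 fold change of 0.52. LGR4 averaged 4307 ± 438 in EXT1-/- libraries and 3065 ± 384 in WT libraries, a log2 fold change of 0.49. LGR5 was not among the genes of the deposited table, which had been filtered at about 1 CPM. The R-spondin RSPO3 was 15, 17, 14 and 16 in EXT1-/- libraries, against 87, 119, 166 and 215 in WT libraries. At -3.09 ± 0.27 (SE, limma adjusted p = 4.61e-05) it had the largest log2 fold change of the 60 genes in either direction. RSPO3 was below 1 CPM (38.9 normalised counts) in every EXT1-/- library. The filter of the deposited values at about 1 CPM thus kept it only through the WT libraries, and its fold change, p-value and rank are tied to that filter. The counts of lower genes in its list and among the 60 include it.

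Secreted antagonists and their Kremen receptors gave 5 higher, 2 lower and 2 not passing among 9 measured of 12. FRZB, among the 5 higher, did not pass in the low set (limma adjusted p = 0.0959). WIF1, also among the 5, was kept by the filter only through the EXT1-/- libraries. SFRP2, which binds Wnts with a Frizzled-like domain, averaged 2246 ± 540 in EXT1-/- libraries and 6496 ± 1010 in WT libraries (SD, n = 4 each), a log2 fold change of -1.55. DKK4, an LRP blocker, changed by -2.21 and KREMEN1 by 0.38. DKK1, also an LRP blocker, had higher counts than DKK4 and went the other way. It averaged 5275 ± 1138 in EXT1-/- libraries and 2415 ± 1009 in WT libraries (SD, n = 4 each). Its log2 fold change was 1.22 (limma adjusted p = 0.0214). Of 10 Dishevelled and destruction complex genes, 9 did not pass. The exception was AXIN2, a standard β-catenin target, at 13112 to 16189 in EXT1-/- libraries and 7152 to 8088 in WT libraries, a log2 fold change of 0.92 ± 0.07 (SE, limma adjusted p = 2.59e-05). In the low set CTNNB1, the gene of β-catenin, passed as well, at 0.14 (limma adjusted p = 0.00938). None of the 4 TCF/LEF genes, the DNA-binding partners of β-catenin, passed by limma, with 1 at an unadjusted p below 0.05 and 1 by the FDR of the authors' deposited table. Their median log2 fold change was 0.36, and 3 of the 4 passed in the low set, as well as without WT replicate 1. Those fits also called more of all 15811 genes, 7111 in the low set and 6041 without WT replicate 1, against 5063 with all libraries. The 11 core planar cell polarity genes included 4 higher and 1 lower, and the remaining 6 missed the threshold. SCRIB, among the 4, did not pass in the low set (limma adjusted p = 0.0612) or with GC and length trends removed (limma adjusted p = 0.11). DAAM1 (limma adjusted p = 0.0102) and PRICKLE1 (limma adjusted p = 0.000712) passed as higher in the low set. PRICKLE2 changed by 0.61, CELSR1 by 0.52 (0.30 with GC and length trends removed) and VANGL1 by -0.50.

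**Figure D5:**
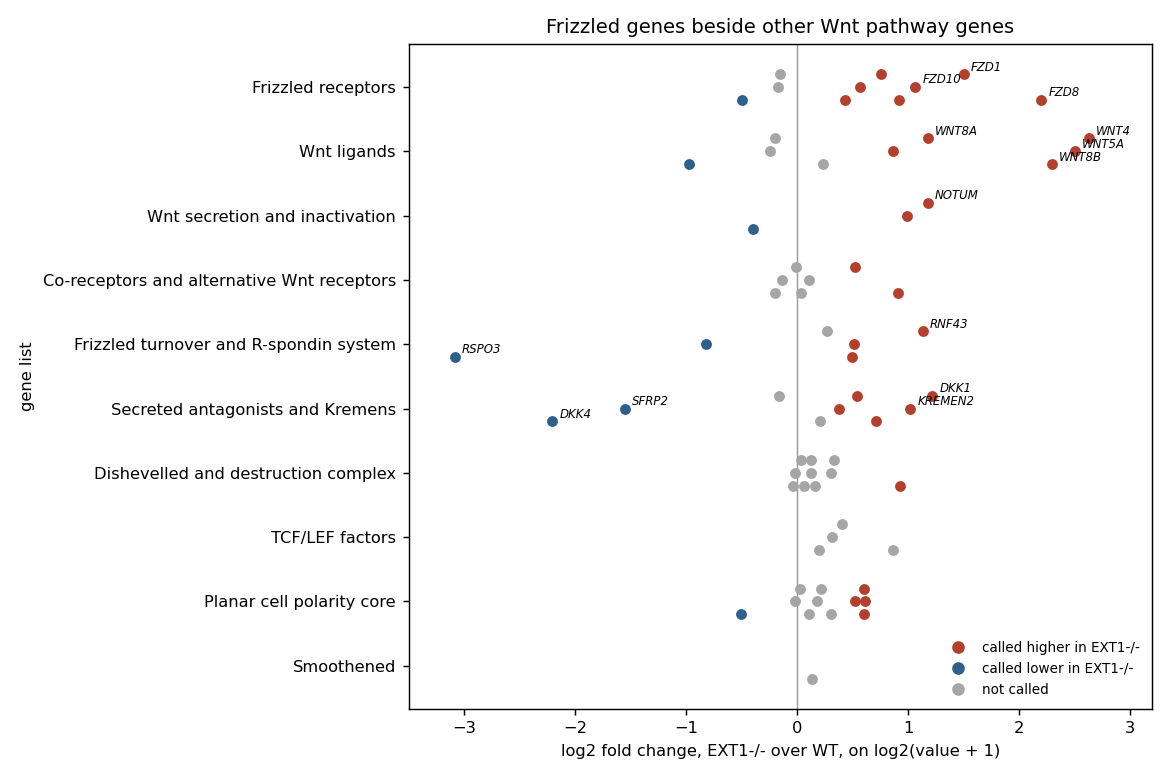
Log2 fold change, EXT1-/- over WT, of each measured gene in the Frizzled family and 9 other lists; red genes were called higher in EXT1-/-, blue lower, grey not called, and named genes changed at least 2-fold. The Frizzled points run from -0.49 to 2.20, while the Dishevelled and destruction complex genes other than AXIN2 and all TCF/LEF genes are grey in the fit of all 8 libraries.

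Markers of other states moved with the groups, and their part in the Frizzled differences was not tested. Of 13 measured primitive streak genes of 14, 2 were higher and 5 lower, and their sum was 25965 to 47943 in EXT1-/- libraries and 44624 to 49388 in WT libraries. MIXL1 was 4190 to 6845 in EXT1-/- libraries and 13786 to 16344 in WT libraries. Of 10 pluripotency genes, 2 were higher and 7 lower, with sums of 184404 to 205017 in EXT1-/- libraries and 225236 to 247092 in WT libraries. POU5F1 was 31218 to 34305 in EXT1-/- libraries and 56260 to 61734 in WT libraries. Of 7 measured neuroectoderm genes of 12, 5 were higher and 1 lower. The sums over the 7 were 18793 to 24239 in EXT1-/- libraries and 13235 to 14799 in WT libraries. PAX6, SOX1, SIX3, LHX2 and HES5 were not among the genes of the deposited table, which had been filtered at about 1 CPM. Of 7 measured amnion and trophectoderm genes of 11, 4 were higher and 1 lower, with sums of 4200 to 7020 in EXT1-/- libraries and 3641 to 3908 in WT libraries. Most of that sum was CDX2, also in the primitive streak list, at 3389 to 5871 in EXT1-/- libraries and 3207 to 3552 in WT libraries, which did not pass (limma adjusted p = 0.234). HAND1 was 40 to 104 in EXT1-/- libraries and 0 to 1 in WT libraries. GABRP, the 1 lower gene of that list, went the other way. It was 4 to 11 in EXT1-/- libraries and 53 to 62 in WT libraries (log2 fold change -2.79, limma adjusted p = 0.000247). The filter at about 1 CPM kept HAND1, TFAP2A and TBX3 only through the EXT1-/- libraries and GABRP only through the WT libraries. In the neuroectoderm list it kept POU3F2 and OTX1 only through the EXT1-/- libraries and OTX2 only through the WT libraries. All of these are among the genes counted above as higher or lower, so the counts for both lists are tied to that filter. The 3 measured fibroblast genes of 7 were all lower. They summed to 4819 to 5430 in EXT1-/- libraries and 8039 to 8838 in WT libraries. The 4 blood genes were not in the deposited table either.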

How the data were processed

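The authors deposited 1 table whose 8 columns of whole-number values belong to 1 library each; columns from any other sample numbered 0. These values are a score here, called normalised read counts: libraries are scaled to nearly equal totals, so they are not raw counts. Of the authors' own comparison in the deposited table, which gives a log2 fold change, p-value, FDR and test score for each gene, only the fold change and FDR were used. The submitters' processing notes name STAR, RSEM, edgeR and GRCh38.p10, with no versions. The table had been filtered at about 1 CPM (38.9 normalised counts): every gene reached at least 38 in its second-highest library.

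Groups came from the sample titles. Values were compared as log2(value + 1) with limma 3.58.1 (intensity trend, genotype as the only term), Benjamini-Hochberg adjusted over 15811 genes at 0.05. Intervals are 95% intervals. Fold changes on this scale understate low genes. No label states whether replicates came from separate cultures; p-values therefore reflect only how much these libraries vary, which may be technical. Python 3.11.15, pandas 2.3.3, scipy 1.17.1, matplotlib 3.10.9, Biopython 1.88 and R 4.3.3 were used. The fit was tested on simulated data. GENCODE 29 matched 15768 genes (99.7%) and gave coordinates, lengths and the coding sequences whose translations were aligned globally for protein identity.

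The members, lists and tests were chosen with earlier results of these data known. Genes were named by rule: every member, EXT1, up to 3 per list with the smallest adjusted p, fixed pathway and cell-state genes (LRP5, LRP6, ZNRF3, RNF43, LGR4, LGR5, SMO, AXIN2, TBXT, MIXL1, POU5F1), and the 3 profiles nearest to the most changed member. HAND1, GABRP, FZD10-AS1, TFAP2A, TBX3, POU3F2, OTX1, OTX2, WNT3, WNT4, WIF1 and DKK1 were named after their values were seen. So were the genes named because their call changed in another fit (PTK7, TSPAN12, SCRIB, DAAM1, PRICKLE1, FRZB, CTNNB1 and WNT5B).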

Additional observations from a re-analysis of the deposited data

Results flagged for a closer look

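In groups of 4 libraries, the highest or lowest library was marked where its gap to the nearest other, as a share of the group's range, exceeded Dixon's 95% critical value. Of 80 such groups, from 40 genes, 7 were marked, and chance marks about 1 in 20.

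For FZD7 the marked value was 6728 in EXT1-/- replicate 3, below the other EXT1-/- libraries but above every WT library. EXT1-/- replicate 4, of the high mitochondrial set, stood above the other EXT1-/- libraries for NOTUM (1269), ZNRF3 (2572), SMO (3345) and TBXT (4932). For TBXT the WT group was also marked, with 7319 in WT replicate 3. EXT1 was marked in WT replicate 1, at 1776. None of the other 9 Frizzled genes was marked in either group.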

How the results depend on the processing

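Counts of calls and the fold changes of the members and the genes named by rule were recomputed under 22 alternatives, and shares per length under 1, the mean transcript length. FZD1, FZD2, FZD4, FZD5, FZD7 and FZD10 passed the threshold in the same direction in all 22, and FZD8 in all 21 that held it; FZD9 passed in 18 of 21. The log2 fold change ranged over these from 1.37 to 1.56 for FZD1, 1.89 to 2.40 for FZD8, 0.33 to 0.86 for FZD9 and -0.57 to -0.45 for FZD5. At 5 CPM in 4 libraries FZD8 and FZD9 were filtered out. Leaving out 1 library in turn gave 7 higher members each time, and 1 to 2 lower, FZD3 joining FZD5 without WT replicate 1. Over all genes 3721 to 6041 passed without 1 library, against 5063 with all, 7111 in the low set and 8195 with the library set as a term. Same-numbered libraries did not all deviate together (correlations 0.78, 0.44, 0.26 and -0.65); with the replicate block 4934 genes, 7 higher and 1 lower member passed. The lower Wnt list genes numbered 7, against 4 under the 5 CPM filter, which tests fewer genes, and 13 with GC and length trends removed with the replicate block; the cause was not tested. LRP5 (-0.014 in all libraries) ranged from -0.10 to 0.068 when 1 library was left out, turning positive without EXT1-/- replicate 2 or 3 or WT replicate 1, and with GC and length trends removed it passed at -0.26 (limma adjusted p = 0.00293). SMO was -0.051 with those trends removed, with or without the block. FZD8 and FZD9 have the lowest counts of the family.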

Other observations

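The nearest measured protein-coding neighbour on each side of every Frizzled gene was also read, 20 neighbours in all. Of these, 3 were higher in EXT1-/- cells, 5 were lower and 12 did not pass the limma test, where 32.0% of all genes passed in either direction. CDK14, a kinase gene 53.8 kb from FZD1, had a log2 fold change of -0.46, EXT1-/- over WT, beside 1.50 for FZD1. MEIOC, a meiosis gene 96.8 kb from FZD2, was at -1.16, beside 0.92 for FZD2. RIMBP2, a gene of the synapse 230.4 kb from FZD10, was at -1.16, beside 1.06 for FZD10. CCNY, a cyclin gene 65.6 kb from FZD8, was at -0.30, beside 2.20 for FZD8. Of the higher ones, MTERF1 beside FZD1 was at 0.37, BAZ1B, 4.3 kb from FZD9, at 0.22, and EXTL3 beside FZD3 also at 0.22. CCNYL1, whose gene lies 0.7 kb from FZD5, was at 0.09 and did not pass (limma adjusted p = 0.549), beside -0.49 for FZD5. These neighbours were picked for the text after their values were seen.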
